A study of Mus musculus with 9 samples.

Results

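The genes studied were 70 that encode subunits of the respiratory chain and its mitochondrial partners, out of 41388 genes in the deposited tables. They were taken by symbol among protein-coding genes: genes of the Ndufa, Ndufb, Ndufc, Ndufs and Ndufv families of complex I (not every member of these families, and no assembly factors), Sdha to Sdhd of complex II, the Uqcr genes of complex III, the Cox4i, Cox5, Cox6, Cox7 and Cox8 genes of complex IV, and the mt-Nd, mt-Co, mt-Atp and mt-Cytb genes of mitochondrial DNA. Of 80 such genes, 70 reached 0.5 CPM (a gene's count scaled to the library's total) in at least 3 of the 9 libraries. Among the members, 63 were nuclear (37 of complex I, 4 of complex II, 8 of complex III and 14 of complex IV) and 7 were mitochondrial. The 10 genes under the limit were 6 mitochondrial mRNAs and the isoform genes Cox4i2, Cox6a2, Cox7b2 and Cox8c. Just inside it stood Cox8b, which passed in 3 libraries, all DKO, and just outside stood Cox4i2, which passed in 1.

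Polyadenylated RNA of whole liver was sequenced from male C57BL/6J mice that had all received diethylnitrosamine, a liver carcinogen, at 25 mg per kg by intraperitoneal injection when 14 days old, and that ate standard chow until 6 months. Control mice carried floxed Mttp (Mttp f/f), MttpLKO mice had lost Mttp in the liver, and DKO mice combined that loss with a germline deletion of Fabp1. Mttp encodes the microsomal triglyceride transfer protein, needed to assemble VLDL particles, and Fabp1 the main fatty acid-binding protein of the liver cell. Each genotype had 3 libraries, each from RNA pooled over 3 mice, so p-values measure the spread between pools and not between single mice. Neither the Cre driver nor the tumour content of the tissue is given in the sources used here, and no mice lacking Fabp1 alone were among the samples.

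The libraries held 23268389 to 27918197 counts, and the 3 DKO libraries, up to 23429588, were the shallowest. Mttp stood at 69.4 to 181 CPM in control and at 3.24 to 9.78 in the other libraries, and Fabp1 at 50.3 to 78.0 CPM in DKO and at least 3379 elsewhere. The summed level of 9 hepatocyte markers was 89240 to 105900 CPM in control and MttpLKO and 65870, 83400 and 97540 in DKO replicates 1 to 3, and that of 9 muscle markers was at most 0.297. MttpLKO replicate 3 stood off from the rest, with a first principal component score of 53.7 where theirs were -17.4 to 9.62, and had 18.2 CPM of 4 cycling-cell markers against 2.29 to 9.32 in the others. It also had the highest sums of leukocyte markers (107 CPM against 24.0 to 67.1), stellate and fibroblast markers (139 against 45.5 to 84.1) and bile duct markers (30.2 against 17.3 to 23.8).

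Oxidative phosphorylation passes electrons from NADH through complex I, or from succinate through complex II, to ubiquinone, complex III, cytochrome c and complex IV, where oxygen is reduced. The proton gradient built on the way drives the ATP synthase. Mitochondrial DNA encodes a small group of core subunits of complexes I, III, IV and the ATP synthase, transcribed as long polycistronic RNAs, and the nucleus encodes all of complex II and every other subunit. Hepatocytes are rich in mitochondria and use this system for the ATP and the NADH reoxidation that fatty acid oxidation, urea synthesis and gluconeogenesis need.

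Not all of the mitochondrial genome was visible in these tables. Of 13 mitochondrial mRNAs, mt-Nd1, mt-Nd2, mt-Nd4, mt-Nd5, mt-Nd6, mt-Co1 and mt-Cytb were abundant, and 6 were nearly without counts. Over the 9 libraries together mt-Nd3 had 25 counts, mt-Atp6 had 4, mt-Co3 had 2, mt-Co2 and mt-Nd4l had 1 each and mt-Atp8 had 0. A count of 0 in a library allows a level of up to 0.107 to 0.129 CPM (3 counts), for counting error only. mt-Co2 and mt-Co3 encode core subunits of complex IV and mt-Atp6 and mt-Atp8 encode subunits of the ATP synthase, so no mitochondrially encoded ATP synthase subunit was measured.

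The mRNAs without counts, other than mt-Atp8, were those copied over nearly their whole length elsewhere in the annotation. Pseudogenes on the minus strand of chromosome 1, between 24611535 and 24616197 (GRCm38, GENCODE M21), repeat this stretch of mitochondrial DNA. The copy of mt-Co2, Gm28661, matched 681 bases with 0 mismatches, that of mt-Atp6, Gm10925, 678 bases with 0, that of mt-Co3, Gm28437, 783 bases with 0, that of mt-Nd4l, Gm10222, 294 bases with 0, and that of mt-Nd3, Gm28438, 345 bases with 1 mismatch. The first 60 bases of mt-Co2, mt-Co3 and mt-Atp6 are shown because each occurs unchanged in its chromosome 1 copy. The same stretch of mt-Cytb, found in 0 other genes, is shown for contrast.
mt-Co2: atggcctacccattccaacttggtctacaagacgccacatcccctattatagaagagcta
mt-Co3: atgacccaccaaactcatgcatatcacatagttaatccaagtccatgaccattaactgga
mt-Atp6: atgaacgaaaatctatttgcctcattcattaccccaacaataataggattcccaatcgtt
mt-Cytb: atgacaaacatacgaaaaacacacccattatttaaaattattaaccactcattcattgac

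The share of a transcript's 50-base windows that also occur in another annotated gene was 100% for mt-Co2, 99.9% for mt-Co3, 99.5% for mt-Atp6, 98.8% for mt-Nd4l and 98.0% for mt-Nd3. For the mRNAs that kept counts it was 62.2% in mt-Nd4, 51.1% in mt-Co1, 8.2% in mt-Nd2, 7.6% in mt-Nd5 and 0% in mt-Nd1, mt-Nd6 and mt-Cytb. The chromosome 1 copies did not hold the missing counts: over the 9 libraries Gm10925 had 73, Gm28661 had 31, Gm28437 had 13, Gm28438 had 9 and Gm10222 had 7. mt-Atp8 (MT 7766 to 7969, overlapping mt-Atp6) shared 0% of its windows with an annotated transcript. Its neighbours' copies leave a gap of 233 bases without an annotated gene, whose sequence was not analysed here. How the submitters counted reads that match several genes is not given in the sources used here, and its part in these zeros was not tested. Levels of mt-Nd4 and mt-Co1 may therefore cover only part of each mRNA.

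**Figure D1:**
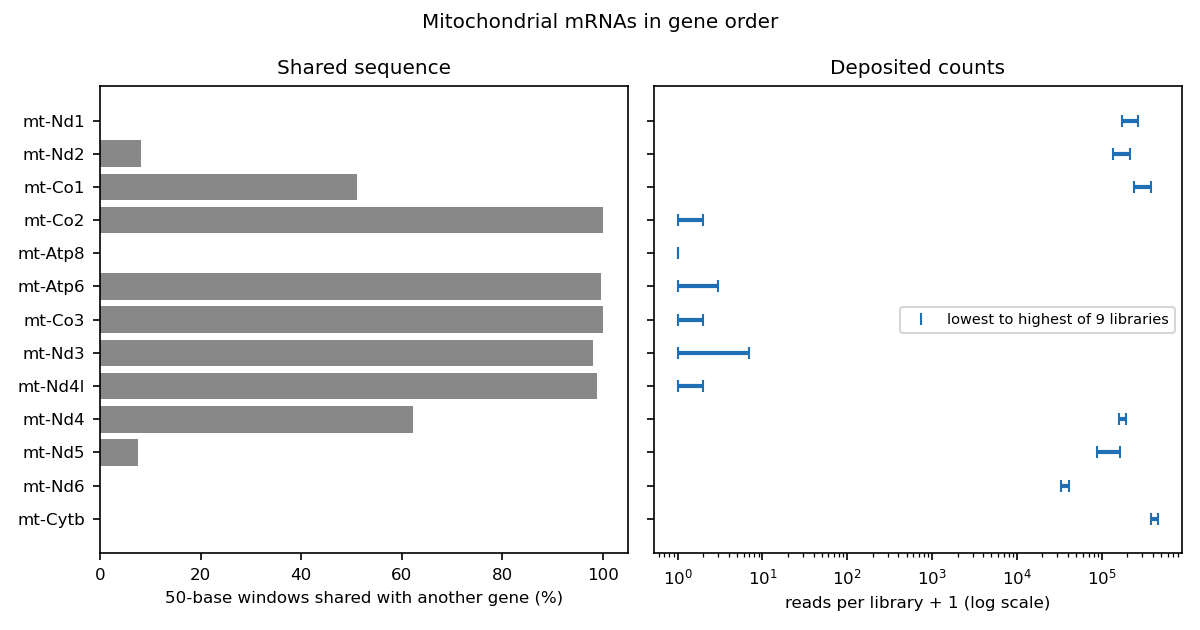
The 13 mitochondrial mRNAs in gene order, with the percent of 50-base windows shared with another annotated gene (left) and the lowest to highest deposited count per library plus 1 on a log scale (right, 9 libraries). The 5 mRNAs with 98.0% or more of their windows shared, and mt-Atp8 with 0%, have almost no counts.

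Some nuclear members also shared windows with other genes. Some of these genes lie elsewhere in the genome, and others, such as Smim27 for Ndufb6 and Gm26631 for Cox5a, overlap the member's own position. Of the 63, 30 shared no window with another gene, and 9 shared over 30%: Cox7c (53.0%), Uqcrb (43.4%), Ndufs5 (41.2%), Ndufs3 (39.7%), Ndufb4 (37.0%), Ndufb6 (34.1%), Ndufb2 (33.5%), Cox5a (32.0%) and Ndufab1 (31.2%). Median RPKM, the deposited level that divides CPM by gene length in kilobases, was 22.8 in those 9 and 134 in the 30 without sharing. It was 68.1 in the 33 with any sharing. Across the 63, the shared percent and mean RPKM had a Spearman rho of -0.25. Some of the 9 also have long deposited gene lengths, such as 6883 bases for Ndufab1 and 5628 for Ndufb2. Levels of these 9 genes are uncertain, and the part of sharing in them was not tested.

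Per length, the 7 mitochondrial members exceeded all 63 nuclear ones. Mean RPKM over the 9 libraries ran from 2777 for mt-Nd6, the mRNA of the light strand, to 14490 for mt-Cytb, the mitochondrial subunit of complex III. Between them stood mt-Co1 at 8635, mt-Nd1 at 8488, mt-Nd2 at 6113, mt-Nd4 at 4977 and mt-Nd5 at 2810. Of the nuclear genes, complex IV had the highest level, 722 RPKM for Cox6a1, and the lowest, 0.848 for Cox6b2, a testis form. Complex I ran from 2.97 for Ndufa4l2, a hypoxia-responsive relative, to 705 for Ndufa4, a gene grouped here by its symbol although its protein is now placed in complex IV. Complex III ran from 48.7 for Uqcrb to 350 for Uqcr10, and complex II from 68.1 for Sdhc to 144 for Sdhb. These levels divide by the gene lengths in the tables, so a gene with a long annotated exon set reads low.

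As a share of all counts, the nuclear members took 1.152%, 1.095% and 1.116% in control replicates 1 to 3, 1.062%, 1.138% and 1.103% in MttpLKO, and 1.001%, 1.182% and 0.902% in DKO. The 7 mitochondrial members took 5.55%, 5.93% and 5.37% in control, 5.41%, 5.04% and 5.64% in MttpLKO, and 6.66%, 5.26% and 7.17% in DKO. In DKO replicates 1 and 3 the nuclear share was below, and the mitochondrial share above, that of each control and MttpLKO library, while DKO replicate 2 had the highest nuclear share of all. Group means of the nuclear share were 1.12% ± 0.029 (SD, n = 3) in control, 1.101% ± 0.038 in MttpLKO and 1.03% ± 0.142 in DKO. Those of the mitochondrial share were 5.62% ± 0.285, 5.36% ± 0.303 and 6.36% ± 0.987. Mitochondrial counts per nuclear count were 4.82 to 5.42 in control, 4.43 to 5.11 in MttpLKO, and 6.65, 4.45 and 7.95 in DKO replicates 1 to 3, so the groups overlapped through DKO replicate 2. In whole liver, fewer cells of a type and less RNA per cell cannot be told apart.

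**Figure D2:**
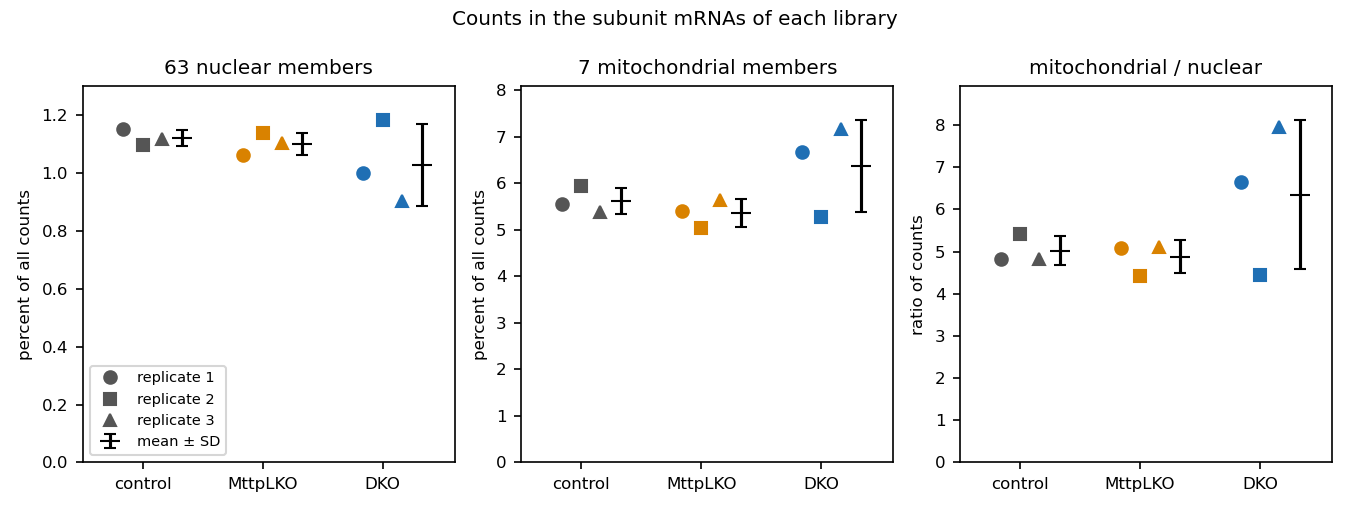
Percent of all counts in the 63 nuclear and the 7 mitochondrial members, and the ratio of these sums, for each library (symbols are replicates, bars are mean ± SD, n = 3). DKO replicates 1 and 3, at 6.65 and 7.95 mitochondrial counts per nuclear count, lie above all other libraries, and DKO replicate 2, at 4.45, lies among them.

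MttpLKO was set against control to see what loss of Mttp in the liver changed. The respiratory chain genes stood close to their control levels. Of 63 nuclear members 32 had higher and 31 lower values, with a median log2 fold change of 0.003, and of the 7 mitochondrial mRNAs 1 was higher, with a median of -0.094, beside 0.011 over all genes tested. The edgeR quasi-likelihood test called 0 of 70 members (Benjamini-Hochberg adjusted p under 0.05) against 0.346% of all genes (0.224% higher and 0.122% lower). At an unadjusted p under 0.05 stood 0 members, against 6.97% of all genes (4.04% higher and 2.94% lower). DESeq2 and limma-voom also called 0, against 1.12% and 0.278% of all genes. Single members' log2 fold changes ran from -0.39 to 0.17. Without control replicate 1, 2 or 3 the nuclear median was 0.023, -0.022 or -0.021, with 26, 41 or 37 of 63 lower. Without MttpLKO replicate 1, 2 or 3 it was 0.025, -0.038 or -0.013, with 24, 46 or 33 lower. The sign of this median thus turned on the library left out. The mitochondrial median was -0.042 without control replicate 2.

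The members with the smallest p in this comparison were Ndufb3 and Ndufa8, accessory subunits of complex I. Ndufb3 (chromosome 1, 58586384 to 58595964) stood at 79.5, 73.4 and 72.8 CPM in control and 64.1, 70.5 and 60.9 in MttpLKO, with no overlap between the groups (log2 fold change -0.21 ± 0.12 SE, edgeR adjusted p = 0.844). Ndufa8 stood at 147, 138 and 138 CPM in control and 128, 128 and 117 in MttpLKO (-0.18 ± 0.11 SE, edgeR adjusted p = 0.851). Both were lower in every MttpLKO library, and neither passed the test. Cox7a1, Cox6b1 and Cox7c (the last chosen after its values were seen) were the other members without overlap, so 5 nuclear members lay wholly lower and 0 wholly higher, against 6.99% and 7.27% of all genes. The next smallest p belonged to Cox7a1, mt-Nd4 (-0.16 ± 0.13 SE), Sdhd (0.17 ± 0.14 SE) and mt-Nd6 (-0.12 ± 0.12 SE), at edgeR adjusted p = 0.859, 0.918, 0.918 and 0.955.

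DKO was set against MttpLKO to see what germline loss of Fabp1 added. Nuclear and mitochondrial transcripts had values on opposite sides. Of 63 nuclear members 55 had lower values, with a median log2 fold change of -0.14, and 7 of 7 mitochondrial mRNAs had higher values, with a median of 0.28, beside -0.016 over all genes and 46.9% of genes higher. By complex, 35 of 37 members of complex I, 2 of 4 of complex II, 6 of 8 of complex III and 12 of 14 of complex IV had lower values. No single difference passed the test: edgeR called 0 of 70 members against 0.4% of all genes (0.258% higher and 0.142% lower), and DESeq2 and limma-voom called 0, against 1.45% and 0.38%. At an unadjusted p under 0.05 stood 1 nuclear member higher, 5 lower and 1 mitochondrial member higher, against 9.1% of all genes (4.65% higher and 4.45% lower). The higher nuclear member was Cox8b, which passed the CPM rule through the DKO libraries alone, so that its direction was favoured. Without DKO replicate 1, 2 or 3 the nuclear median was -0.079, -0.25 or -0.065 and the number lower was 46, 57 or 47. Without MttpLKO replicate 2 they were -0.066 and 49. The mitochondrial median was 0.14 without DKO replicate 3, with 6 of 7 higher.

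Among complex I members, Ndufs4, an accessory subunit needed for a stable complex, stood at 70.7, 74.8 and 68.5 CPM in MttpLKO and 55.1, 67.7 and 53.3 in DKO (-0.28 ± 0.11 SE, edgeR adjusted p = 0.472). All DKO libraries were below all MttpLKO libraries, with replicate 2 close to them. Ndufb7, a subunit on the intermembrane side, stood at 194, 224 and 214 CPM in MttpLKO and 158, 203 and 130 in DKO, where the groups overlapped (-0.36 ± 0.15 SE, edgeR adjusted p = 0.488). In complex II, Sdhd, a membrane anchor, stood at 172, 160 and 122 CPM in MttpLKO and 113, 130 and 124 in DKO, also with overlap (-0.31 ± 0.14 SE, edgeR adjusted p = 0.533). The other complex II subunits had log2 fold changes of 0.06 for Sdha, the flavoprotein, -0.16 for Sdhb, the iron-sulphur subunit, and 0.02 for Sdhc, the second anchor.

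Of the mitochondrial mRNAs, mt-Nd6, a complex I core subunit, stood at 1357, 1329 and 1243 CPM in MttpLKO and 1609, 1408 and 1747 in DKO (0.28 ± 0.12 SE, edgeR adjusted p = 0.533). It was the mitochondrial member without overlap between these genotypes. Control, at 1334, 1560 and 1387, overlapped both. mt-Nd1, where electrons reach ubiquinone, stood at 7935, 7387 and 7134 CPM in MttpLKO and 8326, 7777 and 12110 in DKO (0.33 ± 0.17 SE, edgeR adjusted p = 0.604). The other mitochondrial log2 fold changes were 0.35 for mt-Nd2, 0.30 for mt-Nd5, 0.22 for mt-Cytb, 0.19 for mt-Nd4 and 0.07 for mt-Co1, the catalytic subunit of complex IV, with edgeR adjusted p of 0.604 to 0.942. Groups without overlap numbered 1 nuclear member higher (Cox8b), 4 lower (Cox7a1, Cox7a2, Ndufs4 and Ndufa6, the last chosen after its values were seen) and 1 mitochondrial member higher, against 5.67% of all genes higher and 5.83% lower. Cox8b passed the CPM rule through the DKO libraries alone, which favours this direction.

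DKO was set against control to see the sum of both deletions; it shares its DKO libraries with the comparison above. Again most nuclear members had lower and all 7 mitochondrial mRNAs higher values. There were 51 of 63 nuclear members lower, with a median log2 fold change of -0.15, and a mitochondrial median of 0.16, beside -0.002 over all genes and 49.6% of genes higher. By complex, 33 of 37, 2 of 4, 5 of 8 and 11 of 14 nuclear members of complexes I to IV had lower values. EdgeR called 0 of 70 members against 0.332% of all genes (0.237% higher and 0.095% lower), limma-voom called 0 against 0.237%, and DESeq2 called 1, Cox7a1, against 1.73% of all genes, so that 1 of 70 is near its background. At an unadjusted p under 0.05 stood 1 nuclear member higher and 5 lower and 0 mitochondrial members, against 11.2% of all genes (5.91% higher and 5.33% lower). The higher member was again Cox8b, with the limit given above. Without DKO replicate 1, 2 or 3 the nuclear median was -0.089, -0.25 or -0.071, with 43, 58 or 45 lower. Without DKO replicate 2 the mitochondrial median was 0.32, and without DKO replicate 3 it was 0.046, with 4 of 7 higher.

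Ndufb4, a small membrane subunit of complex I, stood at 17.4, 17.9 and 20.9 CPM in control and 12.5, 17.8 and 12.1 in DKO (-0.41 ± 0.16 SE, edgeR adjusted p = 0.377). Ndufa2, an accessory subunit of the matrix arm, stood at 175, 184 and 185 CPM in control and 121, 182 and 107 in DKO (-0.41 ± 0.18 SE, edgeR adjusted p = 0.434). Uqcrq, a small subunit of complex III beside cytochrome b, stood at 654, 686 and 705 CPM in control and 524, 661 and 464 in DKO (-0.31 ± 0.13 SE, edgeR adjusted p = 0.419). In all 3 genes DKO replicate 2 sat within the control range and the other DKO libraries below it. Groups without overlap numbered 1 nuclear member higher (Cox8b, a member only through its DKO libraries) and 5 lower (Cox7a1, Cox7a2 and, chosen after their values were seen, Ndufa6, Ndufa11 and Ndufab1), against 8.95% and 9.18% of all genes. No mitochondrial mRNA was without overlap. mt-Nd1 had the smallest mitochondrial p, at 6941, 8233 and 7428 CPM in control (0.32 ± 0.17 SE, edgeR adjusted p = 0.526).

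**Figure D3:**
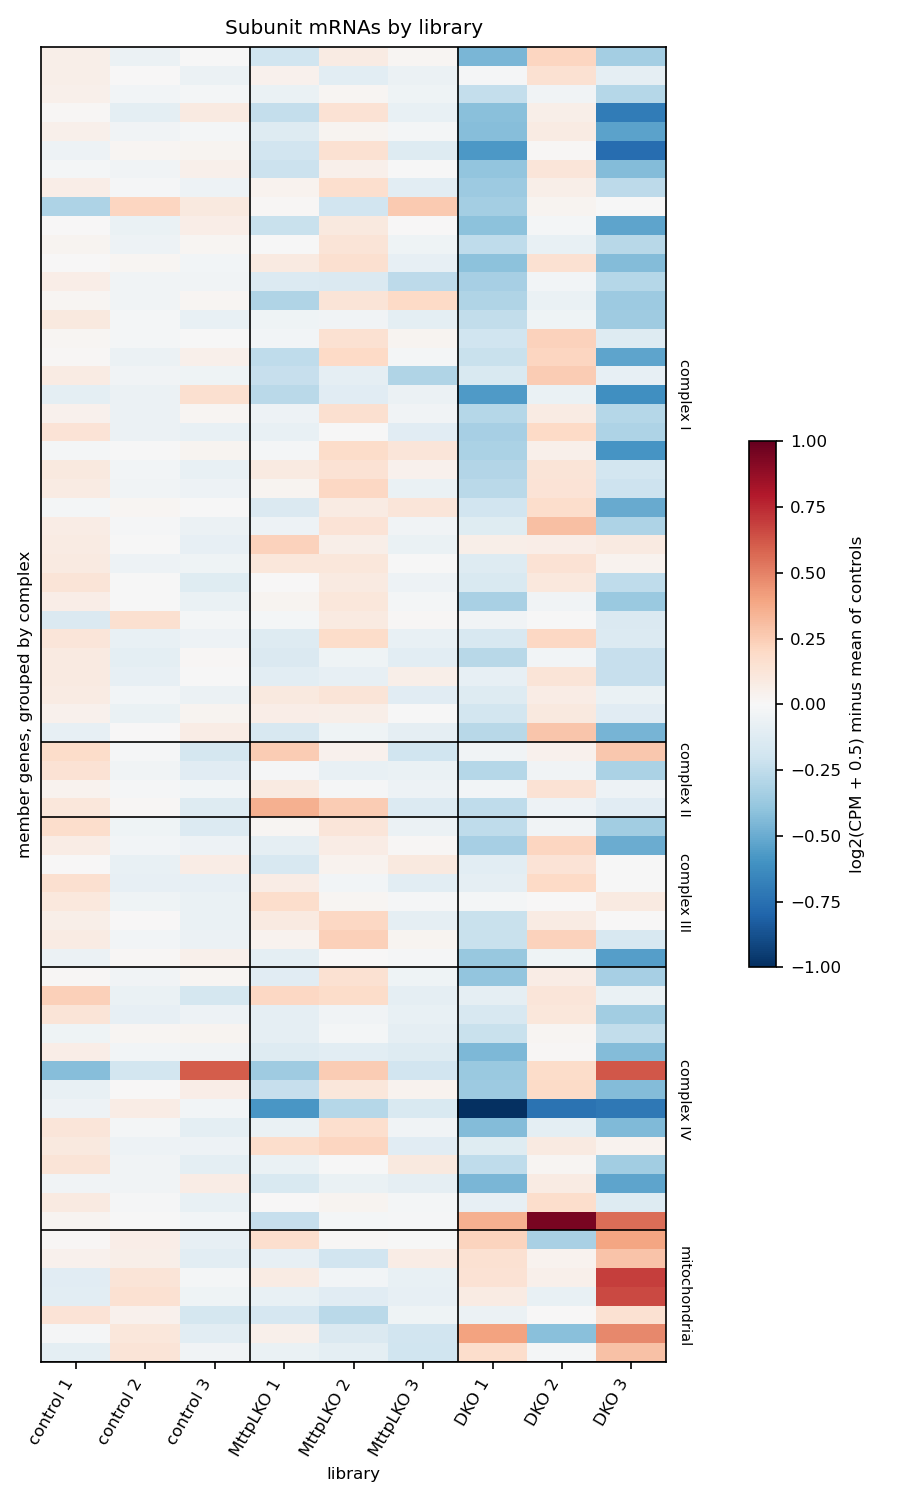
Log2 difference of each member's CPM (plus 0.5) from the control mean, for 70 genes (rows, grouped by complex) and 9 libraries (columns), with colours saturating at -1 and 1. DKO replicates 1 and 3 are blue in most nuclear rows and red in most mitochondrial rows, while DKO replicate 2 is pale in most rows of either kind.

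The nuclear shift thus lay in 2 of the 3 DKO pools, and the mitochondrial one was largest in DKO replicate 3. The median difference of mitochondrial members from the control mean was 0.154, -0.016 and 0.398 in DKO replicates 1 to 3, against -0.113 to 0.117 in the other libraries. The median difference of nuclear members from the control mean was -0.26 and -0.28 in DKO replicates 1 and 3 and 0.085 in replicate 2, against -0.067 to 0.079 in the other 6 libraries. In DKO replicate 1, 49 of 63 nuclear members (77.8%) lay below the lowest control or MttpLKO library, and in replicate 3 it was 47 (74.6%), while 18.0% and 21.3% of all genes did so. In replicate 2, 3 nuclear members lay below and 23 (36.5%) lay above the highest of those 6 libraries, where 15.9% of all genes did. For the mitochondrial mRNAs, 5, 0 and 7 of 7 lay above in replicates 1, 2 and 3, where 14.5%, 15.9% and 22.0% of all genes did. In replicate 2, 2 of 7 lay below the lowest of those 6 libraries, where 20.7% of all genes did. DKO replicate 3 held the highest value of all 9 libraries in 7 of 7, and in 17.9% of all genes. The hepatocyte marker sum was low in DKO replicates 1 and 2 and not in replicate 3. Of its 9 genes, edgeR called 0. In DKO against control 5 of the 9 had higher and 4 lower values, with a median log2 fold change of 0.081. Ttr, the lowest of them and chosen after its values were seen, had -0.58 ± 0.14 SE (edgeR adjusted p = 0.149). The part of hepatocyte content in the nuclear and mitochondrial shifts was not tested.

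By complex, medians in DKO replicates 1, 2 and 3 were -0.28, 0.085 and -0.28 for complex I, -0.15, 0.006 and -0.082 for complex II, -0.22, 0.11 and -0.08 for complex III, and -0.31, 0.087 and -0.34 for complex IV.

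The nuclear members are mostly short mRNAs, and short mRNAs in general were low in the same libraries. In DKO replicates 1, 2 and 3 the 30 nuclear members with an mRNA under 700 bases had medians of -0.31, 0.12 and -0.32, and 181 other protein-coding genes of that length had -0.15, 0.11 and -0.21. The other genes in each length class were those with a mean of at least 10 CPM, a limit not set for the members. At 700 to 1500 bases the 22 members had -0.27, 0.067 and -0.28 and 1151 other genes had -0.10, 0.096 and -0.097. At 1500 to 3000 bases 10 members had -0.11, 0.088 and -0.034, and 2774 other genes had -0.018, 0.041 and 0.035. Other genes over 3000 bases had 0.046, -0.06 and 0.099. Members lay below other genes of their length class in replicates 1 and 3 in all 3 classes, while in replicate 2 both stood above 0. Cytosolic ribosomal protein genes, 77 abundant short mRNAs, had medians of -0.11, 0.12 and -0.20. Across the 63 nuclear members, coding length and the log2 fold change of DKO against control had a Spearman rho of 0.33. It was 0.29 for DKO against MttpLKO and nearly as high, 0.27, for MttpLKO against control. These values describe genes that share the same libraries. The part of mRNA length in the nuclear shift was not tested.

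**Figure D4:**
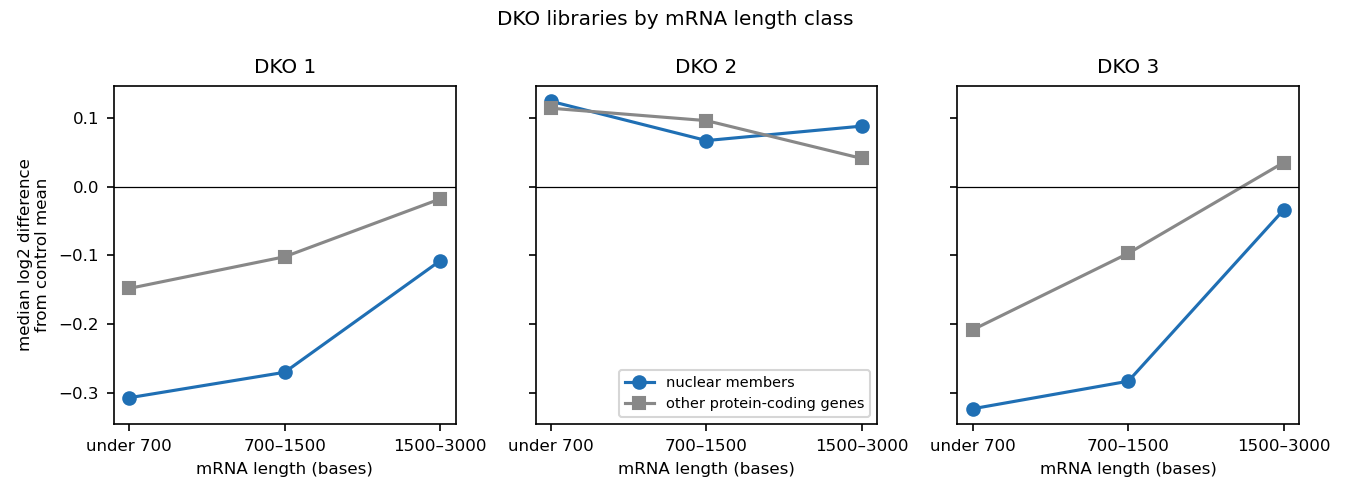
Median log2 difference from the control mean in each DKO library, for nuclear members and for other protein-coding genes that met the CPM limit given in the text, in 3 classes of mRNA length (bases). In DKO replicates 1 and 3 both lines are lowest for the shortest class, at -0.31 and -0.32 for members against -0.15 and -0.21 for other genes, and in replicate 2 both lie above 0.

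Several subunits of complex IV have isoforms that vary by tissue. Cox7a1 encodes the heart and skeletal muscle form of subunit VIIa, and Cox7a2 the form common in liver. Cox7a1 (chromosome 7, 30184171 to 30186028) stood at 2.99, 3.31 and 3.04 CPM in control, 1.91, 2.46 and 2.74 in MttpLKO and 1.05, 1.66 and 1.70 in DKO, in that order without overlap. Its DKO level was 2.12-fold below control (-1.08 ± 0.25 SE on the log2 scale, adjusted p = 0.128 by edgeR and 0.0149 by DESeq2), with edgeR values of -0.69 ± 0.25 SE against MttpLKO (adjusted p = 0.414) and -0.39 ± 0.24 SE for MttpLKO against control (adjusted p = 0.859). Over its alternatives the DKO against control difference ran from -1.21 to -0.89 and the adjusted p from 0.0149 to 0.471. The counts behind it were 74 to 88 in control and 26 to 39 in DKO.

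The common form Cox7a2 had lower values in the same genotype. It stood at 159, 145 and 137 CPM in control, 140, 165 and 143 in MttpLKO and 108, 137 and 108 in DKO (-0.32 ± 0.12 SE against control, edgeR adjusted p = 0.373, and -0.34 ± 0.13 SE against MttpLKO, edgeR adjusted p = 0.415). DKO lay below both other genotypes, with replicate 2 almost level with the lowest control. Cox7a2l, a relative that joins complexes III and IV into supercomplexes, had a log2 fold change of 0.003 in DKO against control. Muscle markers summed to 0.113 to 0.217 CPM in control, 0.076, 0.147 and 0.297 in MttpLKO replicates 1 to 3, and 0.040 to 0.090 in DKO. Their part in the Cox7a1 values was not tested.

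Cox8b, the heart and muscle form of subunit VIII, also used in brown fat, had the highest fold changes upward. It stood at 0.283, 0.263 and 0.253 CPM in control, 0.153, 0.257 and 0.260 in MttpLKO and 0.482, 0.979 and 0.627 in DKO, from 4 to 7 counts per control or MttpLKO library and 12, 23 and 14 in DKO. DKO lay above the rest, but the gene passed the CPM rule through the DKO libraries alone, which favours a difference of this sign. The edgeR log2 fold change was 1.61 ± 0.41 SE against MttpLKO (adjusted p = 0.196) and 1.37 ± 0.40 SE against control (adjusted p = 0.234). Cox8a, the common form, stood at 410, 381 and 365 CPM in control, 386, 391 and 380 in MttpLKO and 362, 434 and 351 in DKO, with all groups overlapping. Of the adipocyte markers Cfd was 11.7, 56.6 and 2.29 CPM in DKO and 1.29 to 7.52 elsewhere, while Lep was 0 in all 9 libraries, Ucp1 at most 0.040 and Adipoq at most 0.090. The part of fat cells in the Cox8b values was not tested.

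**Figure D5:**
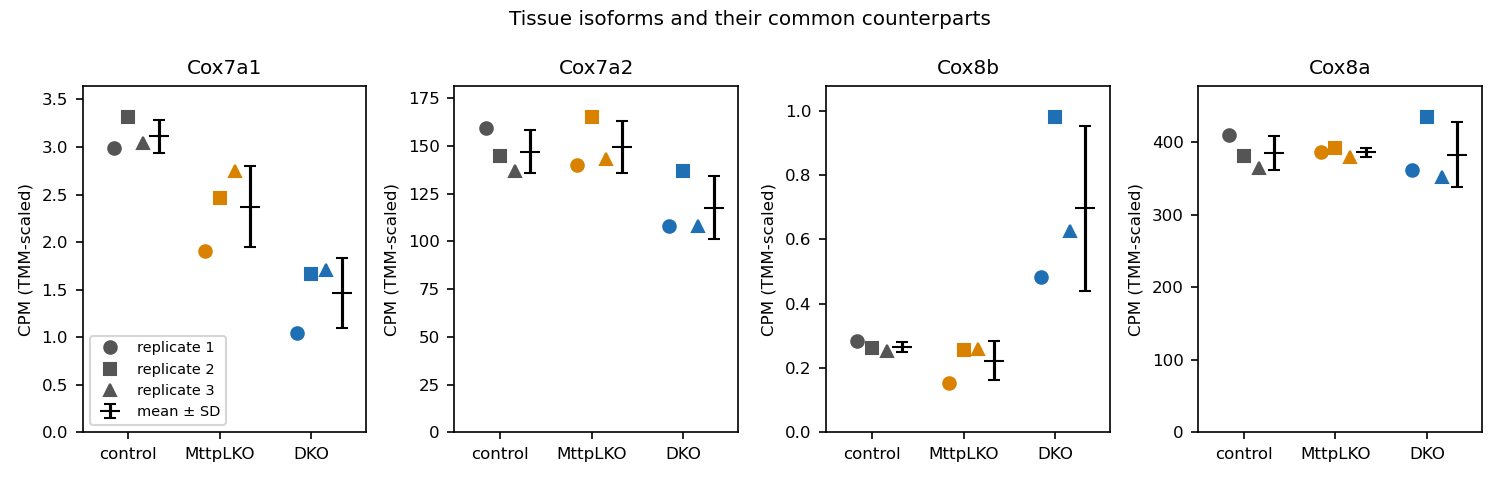
CPM of Cox7a1, Cox7a2, Cox8b and Cox8a in each library (symbols are replicates, bars are mean ± SD, n = 3, each axis from 0). Cox7a1 is highest in control and lowest in DKO, Cox8b is above the rest in DKO at 0.482 to 0.979, and Cox8a, at 351 to 434 in DKO, overlaps the other genotypes.

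The other tissue forms had low levels or no counts. Cox6b2, the testis form beside Cox6b1, ranged from 0.526 to 1.61 CPM over all libraries with overlap throughout. Ndufa4l2 ranged from 2.17 to 3.56 CPM, with 54 to 96 counts per library. Cox4i2, a lung form beside Cox4i1, had 2 to 8 counts in 8 libraries and 24 in MttpLKO replicate 3. Cox6a2, the muscle form beside Cox6a1, had 0 to 4 counts and 10 in that library. Cox7b2 and Cox8c, testis forms, had 0 counts everywhere, which allows up to 0.107 to 0.129 CPM. MttpLKO replicate 3 is the library with the highest cycling-cell, leukocyte, stellate and bile duct markers, and the part of its cell makeup in these counts was not tested. Their common counterparts Cox4i1, Cox6a1, Cox6b1 and Cox7b stood at 475 to 694, 447 to 542, 226 to 322 and 157 to 219 CPM.

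The promoters of these isoform pairs are shown because the muscle forms and their common counterparts had different values in the same livers. Each sequence covers 250 bases before to 50 after the annotated start (RefSeq, GRCm38.p6), read along the gene's strand. Capitals mark the letters found. Those searched, on both strands, were the GC box GGGCGG, the core promoter element TATAAA, the site CTTCCGG of ETS factors such as GABP, the YY1 site AAGATGGCG and the NRF1 consensus, a palindrome named after nuclear respiratory factor 1. Cox7a1 is at chr7:30183921-30184220 on the plus strand, Cox7a2 at chr9:79759804-79760103, Cox8b at chr7:140900397-140900696 and Cox8a at chr19:7217567-7217866, all 3 on the minus strand.
Cox7a1: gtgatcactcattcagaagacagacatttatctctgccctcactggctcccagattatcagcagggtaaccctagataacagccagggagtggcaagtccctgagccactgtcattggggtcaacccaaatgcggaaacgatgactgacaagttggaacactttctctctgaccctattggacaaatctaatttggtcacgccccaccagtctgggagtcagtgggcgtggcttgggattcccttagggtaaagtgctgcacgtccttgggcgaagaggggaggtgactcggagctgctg
Cox7a2: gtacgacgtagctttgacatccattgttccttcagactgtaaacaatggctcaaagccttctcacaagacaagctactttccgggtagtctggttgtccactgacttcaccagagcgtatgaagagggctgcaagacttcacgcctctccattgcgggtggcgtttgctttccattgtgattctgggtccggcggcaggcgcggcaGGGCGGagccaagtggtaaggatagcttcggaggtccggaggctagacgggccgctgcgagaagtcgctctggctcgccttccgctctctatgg
Cox8b: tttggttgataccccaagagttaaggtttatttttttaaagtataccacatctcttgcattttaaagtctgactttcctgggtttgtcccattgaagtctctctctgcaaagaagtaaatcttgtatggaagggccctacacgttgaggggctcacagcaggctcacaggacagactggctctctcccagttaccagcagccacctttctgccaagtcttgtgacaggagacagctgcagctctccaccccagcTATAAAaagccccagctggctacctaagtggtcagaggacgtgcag
Cox8a: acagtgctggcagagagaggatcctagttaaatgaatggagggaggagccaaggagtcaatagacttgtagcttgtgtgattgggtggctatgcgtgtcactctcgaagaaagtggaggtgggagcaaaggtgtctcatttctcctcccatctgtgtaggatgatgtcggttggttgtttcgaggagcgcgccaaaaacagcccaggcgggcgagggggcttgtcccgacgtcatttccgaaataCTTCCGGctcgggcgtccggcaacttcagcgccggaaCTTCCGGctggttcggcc

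In these windows Cox7a1 held none of the searched letters, Cox7a2 a GC box, Cox8b a TATAAA and Cox8a a pair of ETS matches. Over the 52 of 63 nuclear members with a RefSeq promoter, CTTCCGG was in 11 (21.2%), against 13.5% of 16300 protein-coding genes. The NRF1 consensus was in 3 (5.8%) against 1.5%, and the YY1 site in 4 (7.7%) against 2.3%. The GC box was in 22 (42.3%) against 51.5%, and TATAAA in 5 (9.6%) against 14.1%. These are matches of letters, counted with no test, and not binding sites.

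Further genes of the oxidative phosphorylation pathway were examined in lists, which do not hold every remaining subunit gene. The lists were the nuclear ATP synthase (18 genes tested), assembly factors (43), genes of mitochondrial genome expression (24), biogenesis regulators (14), electron carriers and shuttles (24) and mitochondrial ribosomal proteins (75), and edgeR called 0 of them in each of the 3 comparisons. DESeq2 called 1, Slc25a3 in DKO against MttpLKO, where it called 1.45% of all genes, and limma-voom called 0. At an unadjusted p under 0.05 in DKO against MttpLKO were 0 ATP synthase genes, 3 assembly factors, 0 genome expression genes, 1 regulator, 3 carriers and 2 ribosomal proteins, where 9.1% of all genes stood. In the same order of lists these numbers were 0, 0, 0, 1, 0 and 2 in MttpLKO against control, where 6.97% of all genes stood, and 0, 3, 1, 0, 0 and 6 in DKO against control, where it was 11.2%. The ATP synthase genes followed the other complexes by library, with medians of -0.20, 0.094 and -0.19 in DKO replicates 1 to 3, and 14 of 18 had lower values than in MttpLKO. The mitochondrial ribosomal proteins had -0.045, 0.13 and -0.047, and the genes of mitochondrial genome expression -0.085, -0.049 and 0.10.

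Of single pathway genes, Slc25a3, the phosphate carrier that feeds the ATP synthase, stood at 332, 323 and 318 CPM in control, 363, 405 and 339 in MttpLKO and 277, 283 and 284 in DKO. DKO lay below both other genotypes in all 3 libraries, replicate 2 included (-0.39 ± 0.10 SE against MttpLKO, edgeR adjusted p = 0.21). Ppargc1a, the coactivator that drives mitochondrial biogenesis, stood at 13.1, 22.1 and 12.9 CPM in MttpLKO and 8.12, 6.05 and 12.9 in DKO (-0.83 ± 0.29 SE, edgeR adjusted p = 0.386). The smallest p in the other lists of this comparison belonged to Atp5h, Cox18, Polg2 and Mrpl10, at edgeR adjusted p = 0.628, 0.375, 0.562 and 0.445. In DKO against control they belonged to Atp5g1, Foxred1, Tfb1m, Sirt3, Etfdh and Mrps12, at 0.463, 0.341, 0.333, 0.524, 0.461 and 0.305. In MttpLKO against control they belonged to Atp5b, Cox19, Fastkd2, Gabpb1, Slc25a3 and Mrps12, at 0.882, 0.778, 0.761, 0.647, 0.814 and 0.618. Tfb1m, a methyltransferase of mitochondrial ribosomal RNA, stood at 3.56, 4.44 and 4.59 CPM in control and 5.47, 5.92 and 6.45 in DKO, without overlap (0.50 ± 0.18 SE).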

How the data were processed

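The deposited table gives whole-number counts for 41388 genes in 9 libraries, per the file headers, beside CPM and RPKM columns made by the authors. CPM recomputed from the counts differed by at most 5.1e-11. The deposited RPKM values were used for levels per length only. The submitters' processing notes list STAR 2.0.4b, Subread and featureCounts 1.4.5 without saying what each did. For the genome build, annotation, strand setting and treatment of reads matching several genes, the setting was not given in the sources used here. Gene symbols came from GENCODE M21 (GRCm38), which held 97.47% of the identifiers, with all 70 members within 100 kb of the deposited position. Overlapping genes and near-identical copies are uncertain.

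Genes were kept by filterByExpr with a minimum count of 10 (14741 genes, all 70 members among them). Differences were tested with edgeR 4.0.16 (R 4.3.3), TMM scaling and the quasi-likelihood F test, in 1 fit of 3 genotype means over 9 libraries, with Benjamini-Hochberg adjustment over all genes and a threshold of 0.05. Printed CPM is TMM-scaled, and SE is of the log2 fold change. Differences by library are of log2(CPM + 0.5) from the control mean. Sets are described by counts and medians, with no test over members. Shared sequence is the percent of 50-base windows of a transcript found in a transcript of another M21 gene. Alternatives were RLE and upper-quartile scaling, mitochondrial mRNAs left out of library sizes, no low-count filter or a CPM filter, limma-voom (limma 3.58.1), DESeq2 1.42.0, the 6 compared libraries alone, a replicate block and leaving out each library. The test was also tried on simulated counts, and the outcome is not given here. Replicate pairs differed by more than sampling noise, with a chi-square over its degrees of freedom between 19.6 and 64.9.

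Members and lists were chosen with earlier results of these data known. Named genes were the 6 members with the smallest p per comparison, the highest and lowest per complex by RPKM, the mitochondrial mRNAs, tissue isoforms with their counterparts, the complex II genes and the gene with the smallest p per pathway list.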

Additional observations from a re-analysis of the deposited data

How the results depend on the processing

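No member was called by edgeR under any alternative scaling, filter or left-out library, nor by limma-voom. Cox7a1 in DKO against control was the 1 member called under an alternative, by DESeq2, so members called there numbered 1. With no member called by edgeR, no call could be reversed. Over the alternatives the sign of the log2 fold change turned at least once for 37 of 70 members in MttpLKO against control, 18 in DKO against MttpLKO and 26 in DKO against control, among them Cox6b2 in DKO against control, from -0.228 to 0.781. Cox8b had no value for MttpLKO against control with the 6 libraries alone, since it did not pass that filter.

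Counts of genes called over the whole table moved more. For MttpLKO against control 51 became 171 with no low-count filter, 165 with DESeq2 and 14 to 54 with 1 library left out. For DKO against MttpLKO 59 became 180, 214, 34 with the 6 libraries alone, and 22 to 73. For DKO against control 49 became 201, 255, 78, and 15 to 100, the highest without MttpLKO replicate 3.

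With 1 library left out the nuclear median log2 fold change ran from -0.038 to 0.025, from -0.245 to -0.065 and from -0.253 to -0.071 in the 3 comparisons, and the mitochondrial one from -0.131 to -0.042, from 0.14 to 0.37 and from 0.046 to 0.321. On summed RPKM in place of counts, the nuclear share was 2.086%, 2.064% and 1.944% in control, MttpLKO and DKO, and the mitochondrial share 9.175%, 8.835% and 10.77%, which are shares of another total.

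Same-numbered libraries had correlations of -0.244 to 0.072 in their deviations from the group means, and differently numbered ones -0.181 to 0.214. With 3 libraries a genotype, whose deviations sum to 0, these values cannot tell whether replicate numbers pair the libraries. With the replicate block 35, 43 and 40 genes were called in the 3 comparisons, 0 of them members, and the nuclear medians were -0.005, -0.152 and -0.15.

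The design has 3 pools a genotype, and 2 of 3 DKO pools carry the nuclear shift. The mitochondrial shift was largest in DKO replicate 3, and the 6 mitochondrial mRNAs without counts were not measured. Depth limits Cox8b, Cox6b2 and Cox4i2, with at most 44 counts in a library.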
